A study of Mus musculus with 8 samples.

Results

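The mitochondrial carrier family, with the uncoupling proteins that belong to it, was examined in mouse 3T3-L1 adipocytes. Members were the protein-coding genes whose symbol starts with Slc25a, together with Ucp1, Ucp2 and Ucp3, and without the citrate carrier Slc25a1 and the carnitine carrier Slc25a20. This rule gave 48 of the 43629 genes counted. 3T3-L1 pre-adipocytes are a mouse line that turns into lipid-laden adipocytes when given a hormone cocktail, here insulin, dexamethasone, IBMX and rosiglitazone in every group. On day 8 the cells were left untreated, or received 2 µM A66, 0.5 mM palmitate, or palmitate and A66 together for 24 h, with 2 libraries in each of the 4 groups. A66 is a small molecule that inhibits p110α, a catalytic subunit of PI3-kinase, and palmitate is a saturated fatty acid that was given bound to albumin. The control cultures are labelled untreated, whereas the methods of the study describe another A66 dose with a DMSO vehicle. All cells come from 1 clonal line, so the groups differ in treatment of 1 cell model and not between animals.

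Carriers of the SLC25 family sit in the inner membrane of the mitochondrion, with a few in the outer membrane or in peroxisomes, and exchange metabolites between matrix and cytosol. ADP/ATP and phosphate carriers feed ATP synthase, carboxylate and aspartate carriers move carbon and reducing equivalents, and others bring in cofactors, nucleotides, amino acids, glutathione and iron. Ucp1 lets protons return to the matrix without ATP synthesis and is the thermogenic protein of brown fat. In white adipocytes the dicarboxylate carrier Slc25a10 exchanges malate or succinate for phosphate and is known to be abundant.

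The libraries held between 42247091 and 57529803 counts, at which 3 counts, taken as the detection floor, correspond to 0.0519 to 0.0706 CPM, the unit used here for counts relative to the TMM-scaled library size. Libraries of 1 group differed beyond counting noise (chi-square per gene averaging 6.15 to 8.99). The labels do not say that the libraries come from separate cultures, although the methods speak of biological repeats, so p-values measure the spread between these libraries. The 8 adipocyte markers were all expressed, with a summed level of 16277 to 16830 CPM without palmitate and of 14241 to 15532 CPM with it. Pre-adipocyte markers summed to between 3681 and 4451 CPM, with Dlk1 at 0, and macrophage markers to between 2.8 and 5.96 CPM, with Adgre1 at 0. Single genes weigh heavily in these sums, with Lpl at 8164 to 9924 CPM among the adipocyte markers and Col3a1 at 2953 to 3537 CPM among the pre-adipocyte markers. In 11 genes known as targets of FOXO, which PI3-kinase signalling restrains, 0 passed the edgeR test with A66 alone (3 with an unadjusted p under 0.05, 9 positive and 2 negative differences), where 1.84% of all genes passed, whereas Pik3ip1 was higher (0.19, adjusted p = 0.0499) and Klf15 lower (-0.19, adjusted p = 0.0278) with A66 added to palmitate, where 0.973% of all genes were higher and 1.84% lower. In 8 tested PPAR targets, which fatty acids induce, 0 passed with palmitate alone, where 1.17% of all genes passed. With palmitate alone these targets had 2 positive and 6 negative differences (1 higher and 1 lower with an unadjusted p under 0.05). With palmitate added to A66 they had 4 positive and 4 negative differences. Among them the lipid droplet protein Plin2 had 0.17 (adjusted p = 0.0572) with palmitate alone and rose when palmitate was added to A66 (0.21, adjusted p = 0.00737), where 1.46% of all genes were higher. The labels of the untreated and A66 libraries were thus not checked by a called gene of that list. Fewer cells of a type and less RNA per cell cannot be told apart in bulk RNA.

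Of the 48 members, 39 had enough counts to be tested, and 3 of them passed in at least 1 of the 5 comparisons made. These were Slc25a10 and Slc25a34, lower with palmitate plus A66, and Slc25a35, lower with A66 alone. In single comparisons 0.00686% to 2.81% of all genes passed, and the share passing in at least 1 of the 5 was not counted. The other 36 members passed no edgeR test in the main fits, which are described under the processing of the data. DESeq2 called 1 of them, Slc25a5, with palmitate added to A66 (adjusted p = 0.0156). Some of them passed in edgeR fits with other settings, given in the last section. Calls stated without a setting are those of the main fits. Members took between 0.313% and 0.348% of the counts of a library, the lowest shares being those of the palmitate plus A66 libraries, at 0.316% and 0.313%.

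The promoters of Slc25a10 and Slc25a34, which passed in both comparisons of palmitate plus A66, are shown first, from 250 bases before to 50 bases after the start of the transcript (RefSeq, GRCm38.p6, each on the strand of its gene, 5′ to 3′). RefSeq held such windows for 37 of the members, without Slc25a35. Capitals mark the match to CCAAT, which reads ATTGG here because it lies on the opposite strand. Slc25a10 covers chr11:120491587-120491886 on the plus strand, and Slc25a34 covers chr4:141623785-141624084 on the minus strand.

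Slc25a10: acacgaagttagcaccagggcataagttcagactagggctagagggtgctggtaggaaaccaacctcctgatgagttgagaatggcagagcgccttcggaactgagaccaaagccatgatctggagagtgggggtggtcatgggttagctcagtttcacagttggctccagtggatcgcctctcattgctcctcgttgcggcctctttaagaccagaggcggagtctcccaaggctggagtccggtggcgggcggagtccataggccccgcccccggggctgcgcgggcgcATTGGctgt

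Slc25a34: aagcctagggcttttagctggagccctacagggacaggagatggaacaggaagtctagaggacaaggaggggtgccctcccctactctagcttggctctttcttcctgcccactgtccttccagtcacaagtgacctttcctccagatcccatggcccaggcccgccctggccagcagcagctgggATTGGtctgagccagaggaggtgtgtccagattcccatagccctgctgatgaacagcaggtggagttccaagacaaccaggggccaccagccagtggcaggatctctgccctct

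The match began 42 bases into the transcript of Slc25a10 and 64 bases before the start of Slc25a34. CCAAT is a common word, found on either strand in 37.4% of the 32851 promoter windows of 300 bases and in 18 of the 37 members with an entry, some of which have several windows. The other 7 motifs searched on both strands were absent from the windows of Slc25a10 and Slc25a34. They were the E-box CACGTG (7.15% of windows, 6 members), the FOXO word TGTTTAC (3.65%, 0 members), TATAAA (13.6%, 2 members), the PPAR direct repeat, AGGTCA and again AGGTCA with 1 base between (0.0396%, 0 members), TCAAGGTCA of oestrogen-related receptors (0.423%, 0 members), the nuclear respiratory factor 1 word, GCGCA and GCGC with 1 base between (4.6%, 2 members) and the sterol word TCACCCCAC (0.551%, 0 members). The oestrogen-related receptor word and the PPAR repeat share AGGTCA, and a match or its absence describes only the letters of these windows.

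Levels of different carriers were compared per kilobase of exon (CPM per kb, mean over the 8 libraries). The adenine nucleotide translocators dominated, with Slc25a5 at 347.7 CPM per kb and Slc25a4 at 240.2. Together they made up 53.0% to 55.1% of the summed level per length of the 48 members in each library. The 6 most abundant members made up 75.7% to 77.3%. Next came the glutathione carrier Slc25a39 (72.6), Slc25a10 (65.2), the phosphate carrier Slc25a3 (60.4) and the oxoglutarate carrier Slc25a11 (47.4). The ranges over libraries of the first 3 of these met one another in part, at 69.1 to 75.4 for Slc25a39, 54.8 to 73.5 for Slc25a10 and 57.7 to 64.7 for Slc25a3. By this length, within libraries, Slc25a39 stood above Slc25a10 in all 8, and Slc25a10 stood above Slc25a3 in the 6 libraries without the combined treatment and below it in the 2 with it. By the longest transcript in place of all exons both orders turn, with Slc25a10 above Slc25a39 in some libraries and above Slc25a3 in all 8. Ranges of Slc25a5 (321.9 to 375.4) and Slc25a4 (232.9 to 246.2) did not meet one another or any other member.

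**Figure D1:**
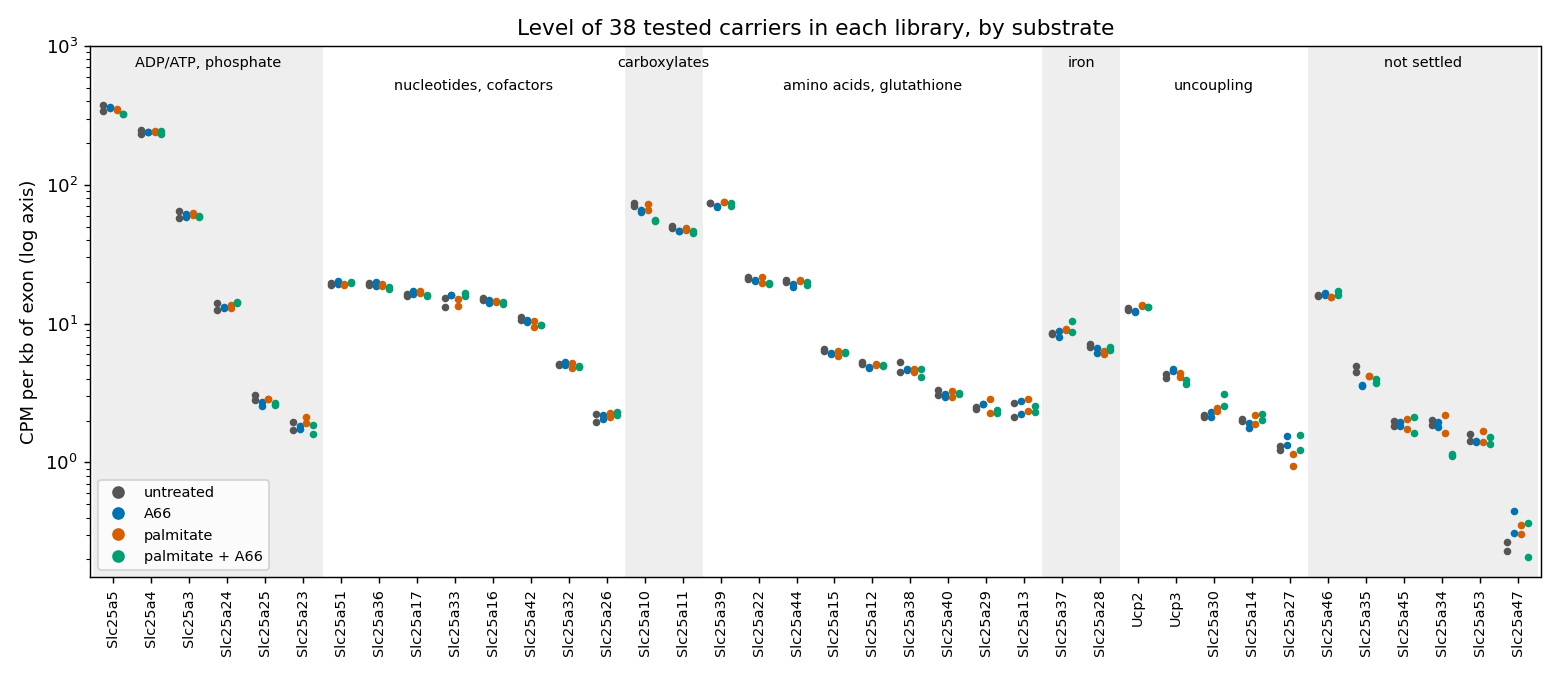
Level of 38 of the 39 tested carriers in each of the 8 libraries, in CPM per kilobase of exon on a log axis, ordered by substrate, with 1 point per library and colours for the 4 groups. Slc25a5 and Slc25a4 lie above 200 CPM per kb in every library, and the colours of most genes fall on top of one another.

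Of the 9 members that could not be tested, 4 had 0 counts in all 8 libraries, namely Ucp1, the oxodicarboxylate carrier Slc25a21, Slc25a43 and Slc25a54. A count of 0 allows up to the floor given above in each library. The other 5 had few counts over the 8 libraries together, with 23 for the ornithine carrier Slc25a2, 6 for the testis ADP/ATP carrier Slc25a31, 3 for the glutamate carrier Slc25a18, 2 for Slc25a41 and 1 for Slc25a48.

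With A66 alone 1 of the 39 members was lower and 0 were higher, which is 2.56% of those tested against 1.84% of all 14158 genes (1.07% higher and 0.77% lower). The median log2 difference of the members was -0.042, with 15 positive and 24 negative, beside -0.001 over all genes. Without untreated replicate 2 the members' median was -0.001, and without untreated replicate 1 it was -0.066. At an unadjusted p under 0.05 there were 6 of 39 members, where 12.8% of all genes passed. With palmitate alone 0 members passed, against 1.17% of 14587 genes (0.631% higher and 0.542% lower). At an unadjusted p under 0.05 there were 3 members, each lower, where 12% of all genes passed. DESeq2 called 0 members for palmitate as well. When A66 was added to palmitate 2 of 39 (5.13%) were lower and 0 higher, against 2.81% of all genes (0.973% higher and 1.84% lower), and the median of the members was -0.061. This median was -0.034 without palmitate replicate 2 and -0.03 without palmitate plus A66 replicate 1. An unadjusted p under 0.05 was reached by 7 of 39 members and 14.4% of all genes. When palmitate was added to A66 the same 2 members were lower and 0 higher, against 2.73% (1.46% higher and 1.27% lower), with a median of -0.014, and 8 of 39 members and 14.6% of all genes had an unadjusted p under 0.05. These shares rest on 1 or 2 genes, no test was made of them, and the counts over all genes vary strongly when single libraries are left out (98 to 635 around 261 with A66 alone). The difference between the A66 effects with and without palmitate, tested as an interaction, passed for 0 members by edgeR and by DESeq2, where edgeR called 0.00686% of all genes and 5 members had an unadjusted p under 0.05, beside 7.92% of all genes. The comparisons share libraries, so their results are given side by side and not as independent repeats.

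**Figure D2:**
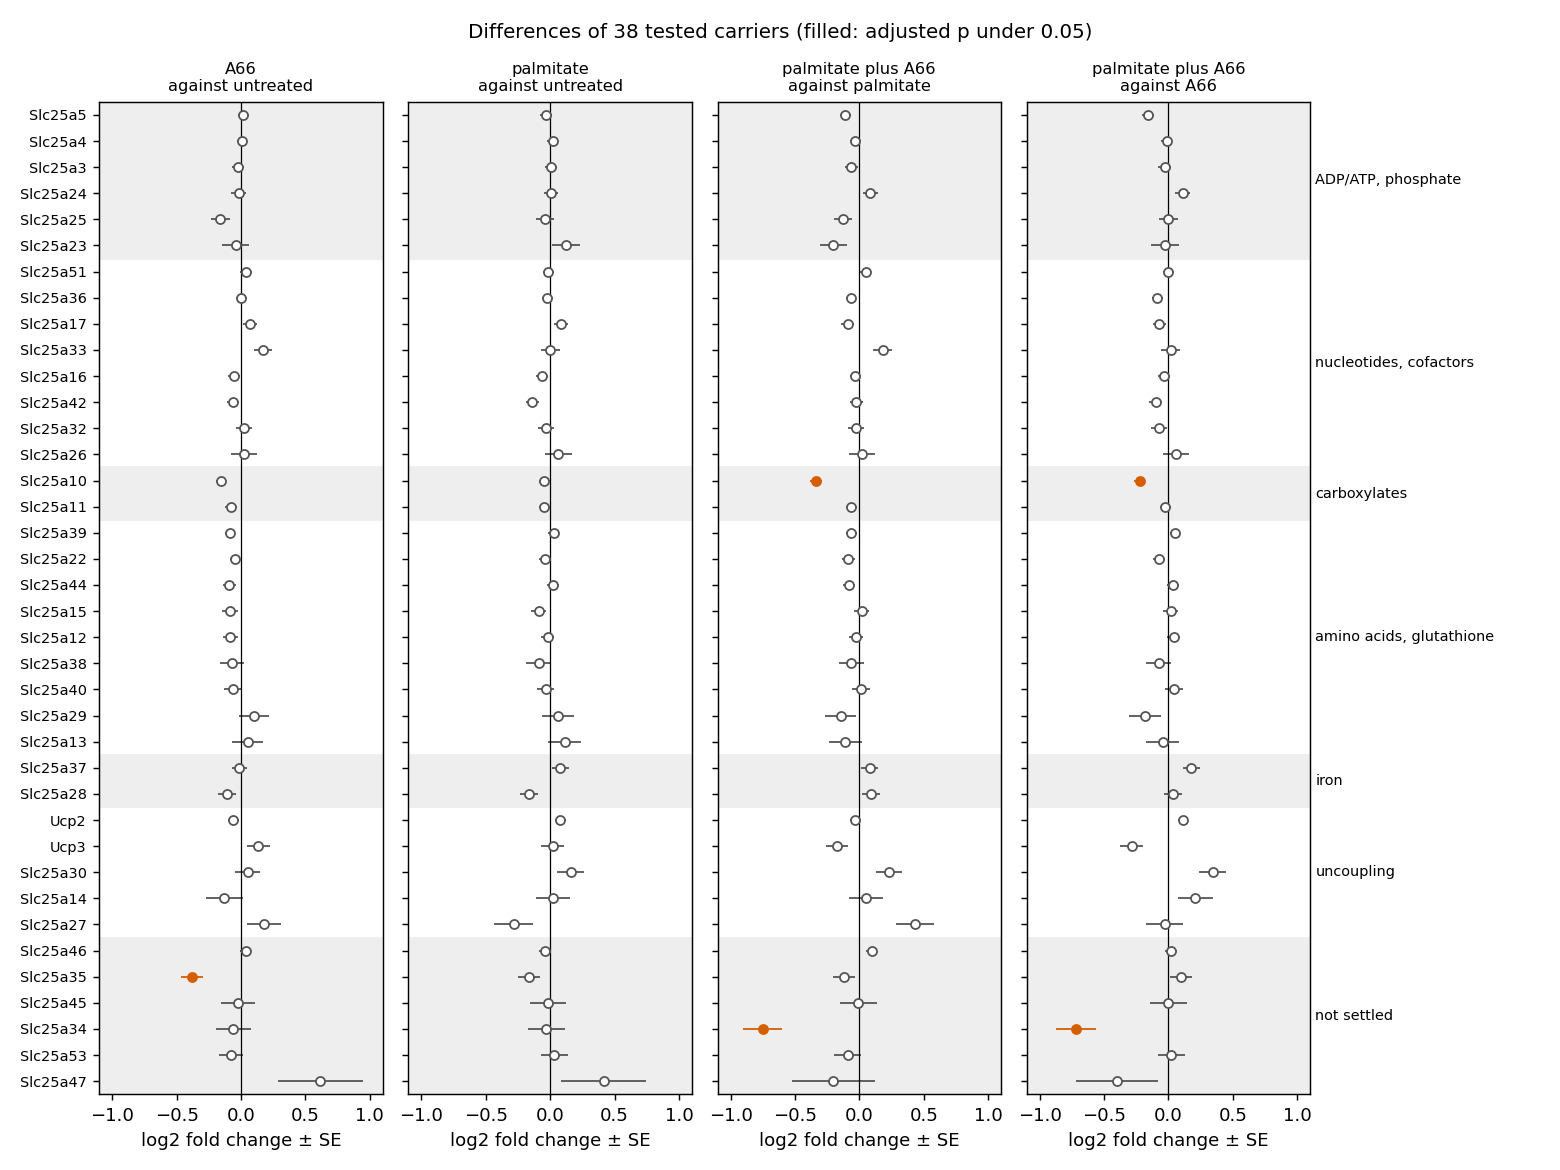
Log2 fold changes (points) and standard errors (bars) of 38 of the 39 tested carriers in 4 comparisons, ordered by substrate, from edgeR fits on 2 libraries per group, with filled points where the adjusted p was under 0.05. Filled points are Slc25a35 with A66 alone, and Slc25a10 and Slc25a34 in both comparisons of palmitate plus A66, and most other points lie within 0.25 of the zero line.

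Precision differed between members. The median standard error of a log2 difference was 0.062 to 0.066 in the 4 treatment comparisons, and 22 to 25 of the 39 members had a 95% confidence interval that lay inside 0.25 log2 units on either side of zero. The largest error was that of Slc25a47, a carrier known from liver, at 0.331 with A66, and its difference of 0.62 (edgeR adjusted p = 0.463) was not resolved.

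The smallest adjusted p among the members was that of a carboxylate carrier. Slc25a10 (ENSMUSG00000025792, chr11:120491840-120499187, GRCm38) was at 242.7 and 253.8 CPM untreated, 226.0 and 218.9 under A66, 229.0 and 252.6 under palmitate, and 191.3 and 189.3 under both agents. Both libraries of the combined treatment were below the other 6, and the A66 libraries were below both the untreated and the palmitate libraries. Group means were 248.2 ± 7.87, 222.4 ± 5.02, 240.8 ± 16.7 and 190.3 ± 1.41 CPM (SD, n = 2). Adding A66 to palmitate lowered Slc25a10 by 20.9%, a log2 difference of -0.34 ± 0.046 (SE, 95% interval -0.43 to -0.24, edgeR adjusted p = 0.000213). Against A66 alone the combined treatment was 14.4% lower, a log2 difference of -0.23 ± 0.046 (adjusted p = 0.00622 by edgeR), which did not pass without A66 replicate 1 (adjusted p = 0.155) or without palmitate plus A66 replicate 1 (0.0578). A66 alone gave a log2 difference of -0.16 ± 0.041, with an adjusted p of 0.0524 by edgeR that misses the threshold and of 0.0342 by DESeq2. Palmitate alone gave -0.044 (adjusted p = 0.767), and the interaction gave -0.18 ± 0.065 (unadjusted p = 0.011, adjusted p = 0.481). An antisense gene, Gm11788, overlaps an exon of Slc25a10, and its level of at most 0.181 CPM is small beside that of the carrier.

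Slc25a11 carries oxoglutarate against malate as part of the malate-aspartate shuttle. It was at 102.8 and 106.4 CPM untreated, 99.0 and 98.9 under A66, 103.6 and 99.3 under palmitate, and 95.9 and 98.7 under both agents, and it passed no test. The ratio of Slc25a10 to Slc25a11 per kilobase was 1.45 and 1.46 in untreated cells and 1.22 and 1.18 with palmitate plus A66, where it was lowest of the 4 groups. The summed level of the carboxylate carriers was 345.5 and 360.2 CPM in untreated cells and 287.2 and 288.0 CPM with both agents.

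Some markers of cell types passed in the same comparisons. With A66 added to palmitate 2 of the 8 adipocyte markers were lower (Slc2a4 and Cidec) and 2 of the 8 had positive differences, where 1.84% of all genes were lower. With palmitate added to A66 5 of 8 were lower (Lpl, Slc2a4, Adipoq, Cidec and Plin1), where 1.27% of all genes were. With palmitate alone all 8 had negative differences and 1 passed as lower, Lpl, where 0.542% of all genes were lower. Their summed level was 16830 and 16277 CPM under A66, 14740 and 15532 under palmitate, and 14241 and 15215 under both agents, so that the last overlaps the palmitate range and lies below the A66 range. Of the 6 pre-adipocyte markers tested, 4 had negative and 2 positive differences with A66 added to palmitate, and Col1a1 passed as lower (log2 difference -0.33, edgeR adjusted p = 0.000175) while Ly6a had the largest difference, at 0.37 (adjusted p = 0.0511). Col1a1 also passed as higher with palmitate alone, where 0.631% of all genes were higher. It was at 630.8 and 625.7 CPM untreated, 586.4 and 594.7 under A66, 717.3 and 772.8 under palmitate, and 576.5 and 609.5 under both agents. Of the 5 macrophage markers 2 were tested, and 1 of them, Cd68, was higher with palmitate added to A66 (0.91, adjusted p = 0.0014), where 1.46% of all genes were higher. The part of these markers in the results for the carriers was not tested.

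**Figure D3:**
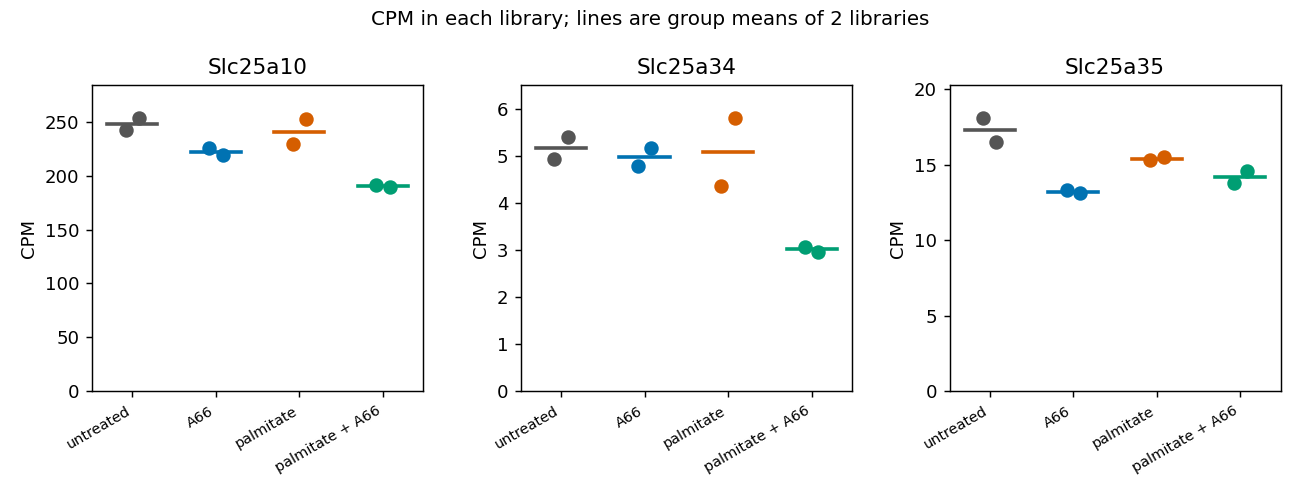
CPM of Slc25a10, Slc25a34 and Slc25a35 in each library (points) and the mean of the 2 libraries of a group (lines), with axes from 0. Slc25a10 and Slc25a34 are lowest in the 2 libraries with palmitate plus A66, at 191.3 and 189.3 CPM and at 3.07 and 2.97 CPM, and Slc25a35 is highest in the untreated libraries.

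Slc25a34 and Slc25a35 are related carriers whose substrates are not settled. Slc25a34 (ENSMUSG00000040740, chr4:141618824-141623821, minus strand) was at 4.95 and 5.42 CPM untreated, 4.79 and 5.18 under A66, 4.37 and 5.82 under palmitate, and 3.07 and 2.97 under both agents. The combined treatment was below the other 6 libraries, which overlapped one another. These levels rest on 148 to 312 counts per library. Slc25a34 fell by 40.6% when A66 was added to palmitate, a log2 difference of -0.75 ± 0.153 (95% interval -1.07 to -0.43, edgeR adjusted p = 0.00666), and it fell by 39.3% against A66 alone, at -0.72 ± 0.155 (adjusted p = 0.00856 by edgeR). The first of these did not pass without palmitate replicate 2 (-0.53, adjusted p = 0.187) or without palmitate plus A66 replicate 2 (0.0548), and the second did not pass without any 1 of the 4 libraries compared (0.0525 to 0.0783). A66 alone gave -0.058 ± 0.136 and palmitate alone -0.03 ± 0.144, with edgeR adjusted p of 0.911 and 0.959. The palmitate value was 0.164 without palmitate replicate 1 and -0.245 without palmitate replicate 2. The interaction was -0.69 ± 0.212 (edgeR unadjusted p = 0.00355, adjusted p = 0.407). The difference between the A66 effects with and without palmitate was therefore not resolved for this gene.

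Slc25a35 (ENSMUSG00000018740, chr11:68968131-68974365, plus strand) was at 18.1 and 16.5 CPM untreated, 13.3 and 13.1 under A66, 15.3 and 15.5 under palmitate, and 13.8 and 14.6 under both agents. The untreated libraries were the highest and the A66 libraries the lowest of the 8. With A66 alone it fell by 23.2%, a log2 difference of -0.38 ± 0.084 (95% interval -0.55 to -0.21, edgeR adjusted p = 0.0159). The call was lost without untreated replicate 1 (adjusted p = 0.0609), A66 replicate 1 (0.0939) or A66 replicate 2 (0.14). With A66 added to palmitate the value was -0.12 (adjusted p = 0.562), and the interaction was 0.26 (adjusted p = 0.61). Slc25a35 shares an exonic region with Rangrf on the opposite strand, and Rangrf was at 7.28 and 7.34 CPM in untreated cells and 7.24 and 7.93 with A66, a log2 difference of 0.055 (adjusted p = 0.898). Reads of the pair cannot be told apart if the counting did not use strand, which is not stated. The same limit holds for all 13 members with an exon that overlaps a gene of the opposite strand, among them Slc25a10, Slc25a11, Slc25a25, Slc25a23, Slc25a26, Slc25a33, Slc25a37, Slc25a46 and Ucp2, and for the ratios made from them. The ratio of Slc25a35 to Slc25a34 per kilobase ran from 2.01 and 1.84 with A66 to 3.26 and 3.56 with both agents.

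Among the ADP/ATP and phosphate carriers 6 of 8 were tested and 0 passed in any comparison in the main edgeR fits. Slc25a5 passed with some other settings, given in the last section. In each comparison at most 1 had an unadjusted p under 0.05, where 7.92% to 14.6% of all genes did. Slc25a5, the translocator of proliferating and many other cells, was at 557.6 and 617.9 CPM untreated, 587.5 and 601.6 under A66, 565.5 and 582.8 under palmitate, and 529.9 and 535.8 under both agents. The libraries with both agents were the lowest of the 8, and the difference from A66 alone was -0.16 ± 0.045 (edgeR adjusted p = 0.0637, 0.0156 by DESeq2). Slc25a4, the translocator of heart and muscle, was at 548.1 and 579.3 CPM untreated, 562.8 and 567.9 under A66, 576.5 and 567.1 under palmitate, and 550.1 and 569.6 under both agents. Its groups overlapped throughout, and its A66 difference of 0.0070 had a 95% interval of -0.074 to 0.088. The ratio of Slc25a5 to Slc25a4 per kilobase was 1.45 and 1.52 in untreated cells and 1.38 and 1.34 with both agents.

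Slc25a3, which imports the phosphate used for ATP synthesis, was at 320.2 and 359.4 CPM untreated, 326.7 and 340.9 under A66, 333.3 and 349.1 under palmitate, and 325.2 and 328.8 under both agents. The libraries with both agents were below the palmitate libraries and overlapped the untreated range. It passed no test. The calcium-regulated ATP-Mg carriers Slc25a24, Slc25a25 and Slc25a23 stood lower, at 13.4, 2.77 and 1.84 CPM per kb, with the ratio of Slc25a24 to Slc25a23 per kilobase between 6.12 and 8.81 (3.89 to 5.59 by the longest transcript). A pseudogene named after Slc25a5 held 0 counts in every library. Reads shared by near-identical copies can be lost or split in counting, and their share was not tested.

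Carriers of nucleotides and cofactors numbered 9, all tested, with 0 called in the main edgeR fits or by DESeq2. In each comparison 1 or 2 had an unadjusted p under 0.05, where 7.92% to 14.6% of all genes did. Their mean levels ran from 2.17 CPM per kb for the S-adenosylmethionine carrier Slc25a26 to 19.5 for Slc25a51. The NAD+ carrier Slc25a51 had the highest mean per kilobase of exon, close to that of the pyrimidine nucleotide carrier Slc25a36 (18.9), and by the longest transcript it stood below Slc25a36 and Slc25a17. Slc25a51 was at 104.0 and 108.4 CPM untreated, 111.4 and 106.6 under A66, 106.0 and 104.7 under palmitate, and 109.8 and 108.3 under both agents. The palmitate libraries were below those of both groups with A66 and overlapped the untreated range, and no test passed. The other pyrimidine nucleotide carrier, Slc25a33, named after its values were seen, had a difference of 0.17 with A66 alone and of 0.18 with A66 added to palmitate (adjusted p = 0.297 and 0.227). The coenzyme A carrier Slc25a42, named in the same way, had -0.14 with palmitate (adjusted p = 0.24).

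The carriers of amino acids and glutathione numbered 11, of which 9 were tested and 0 passed by edgeR or DESeq2, and 1 reached an unadjusted p under 0.05, Slc25a39 with A66. Their differences with A66 alone were small and mostly negative, at 2 positive and 7 negative with a median of -0.071, beside -0.001 over all genes. Slc25a39, the mitochondrial glutathione importer, was at 202.3 and 204.4 CPM untreated, 190.5 and 192.6 under A66, 207.7 and 206.8 under palmitate, and 202.0 and 195.1 under both agents. The A66 libraries were the lowest of the 8, by -0.084 against untreated cells (adjusted p = 0.385 by edgeR). The glutamate carrier Slc25a22 and Slc25a44, which is known to carry branched-chain amino acids, followed at 20.4 and 19.7 CPM per kb, and the other 6 tested were between 2.48 and 6.21. The second glutathione carrier, Slc25a40, stood 22.3 to 25.3 times lower per kilobase. Of the aspartate/glutamate carriers of the malate-aspartate shuttle, Slc25a12 exceeded Slc25a13 by 1.77 to 2.39 times per kilobase, with every group's ratios overlapping those of another.

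Iron reaches the mitochondrial matrix through the mitoferrins Slc25a37 and Slc25a28, and neither passed a test by edgeR or DESeq2. At an unadjusted p under 0.05 stood Slc25a28 with palmitate alone (-0.17, adjusted p = 0.307) and Slc25a37 with palmitate added to A66 (0.18, adjusted p = 0.183). Slc25a37 was at 50.6 and 51.8 CPM untreated, 48.0 and 53.5 under A66, 53.7 and 54.6 under palmitate, and 62.4 and 52.2 under both agents. The 2 libraries with both agents differed more from one another than the means of the other groups did. The ratio of Slc25a37 to Slc25a28 per kilobase was 1.19 and 1.26 in untreated cells and 1.62 and 1.28 with both agents.

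Ucp1 had 0 counts in all 8 libraries. Of the 8 brown or beige adipocyte markers listed, which include Ucp1, 3 had enough counts with A66 and 4 in the fit of all libraries, and Cox8b was lower with A66 added to palmitate (log2 difference -0.46, adjusted p = 0.0153) and with palmitate added to A66 (-0.52, adjusted p = 0.00496), where 1.84% and 1.27% of all genes were lower. Their summed level was 68.5 to 83.5 CPM, mostly from Ppargc1a (55.4 to 63.8 CPM) and Cox8b (11.9 to 19.2 CPM). Cox7a1 was at 0.742 to 1.9 CPM and Cidea at no more than 0.448 CPM. Dio2, Elovl3 and Prdm16 did not exceed 0.0235 CPM, which is under the floor. Ucp2, a widely expressed relative of Ucp1, was at 87.4 and 90.7 CPM untreated, 85.1 and 85.5 under A66, 93.8 and 94.7 under palmitate, and 92.2 and 92.4 under both agents. All 4 libraries with palmitate were above the 4 without it. The difference was 0.080 with palmitate alone and 0.11 ± 0.042 with palmitate added to A66, and the edgeR adjusted p was 0.46 and 0.182.

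Ucp3, the relative known from muscle, was at 12.8 and 13.6 CPM untreated, 14.3 and 14.8 under A66, 13.0 and 13.9 under palmitate, and 12.2 and 11.6 under both agents. The A66 libraries were the highest and the libraries with both agents the lowest, by a difference of -0.29 ± 0.088 (adjusted p = 0.0884 by edgeR). The interaction was -0.31 (unadjusted p = 0.0222, adjusted p = 0.554). The ratio of Ucp2 to Ucp3 per kilobase was 3.06 and 2.99 untreated, 2.67 and 2.60 under A66, 3.24 and 3.07 under palmitate, and 3.38 and 3.58 under both agents.

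Carriers often placed beside the uncoupling proteins are Slc25a14, Slc25a27 and Slc25a30, and the last of these had the largest difference from A66 alone. Slc25a30, named after its values were seen, was at 10.1 and 9.64 CPM untreated, 10.6 and 9.72 under A66, 11.3 and 10.7 under palmitate, and 14.2 and 11.6 under both agents. Palmitate added to A66 gave 0.34 ± 0.105 (adjusted p = 0.087 by edgeR). Slc25a27, also named after its values were seen, had 4.49 and 3.71 CPM with palmitate, below the other 6 libraries, and 6.24 and 4.86 with both agents, a difference of 0.43 ± 0.147 (adjusted p = 0.133). Slc25a14 was between 4.16 and 5.28 CPM in all libraries. Of these carriers and the Ucp genes 5 of 6 were tested and 0 passed in the main edgeR fits or by DESeq2. With no filter on low counts Slc25a30 passed as higher by edgeR with palmitate added to A66. An unadjusted p under 0.05 was reached by 2 for A66 added to palmitate and by 3 for palmitate added to A66. Of all genes 14.4% and 14.6% reached it.

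**Figure D4:**
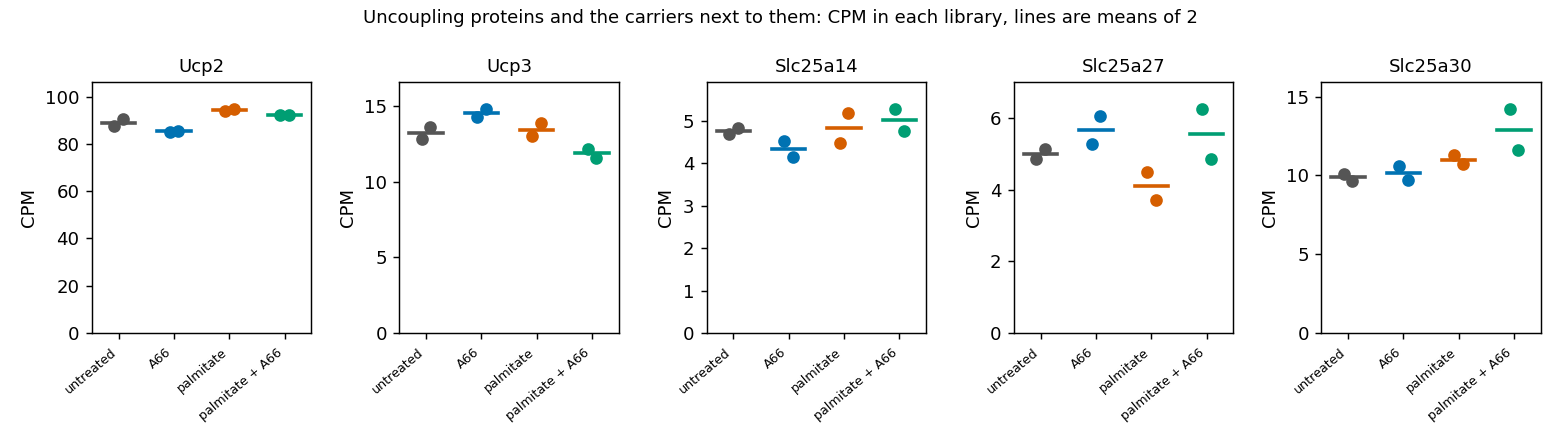
CPM of Ucp2, Ucp3 and the related carriers Slc25a14, Slc25a27 and Slc25a30 in each library (points), with lines at the mean of the 2 libraries of a group and axes from 0. Ucp2 is between 85.1 and 94.7 CPM in all libraries and Ucp3 between 11.6 and 14.8.

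Slc25a46 belongs to the family by sequence and sits in the outer membrane, where it takes part in the shape and lipid content of mitochondria. It was at 87.4 and 86.0 CPM untreated, 87.1 and 90.3 under A66, 84.4 and 83.9 under palmitate, and 87.0 and 92.8 under both agents. A66 added to palmitate gave 0.096 (unadjusted p = 0.0424, adjusted p = 0.322). Among members without a settled substrate, or not transporting, 6 of 9 were tested, and beside Slc25a46, Slc25a35 and Slc25a34 they were Slc25a45 (1.89 CPM per kb), Slc25a53 (1.47) and Slc25a47 (0.311), which passed in 0 comparisons by edgeR or DESeq2.

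**Figure D5:**
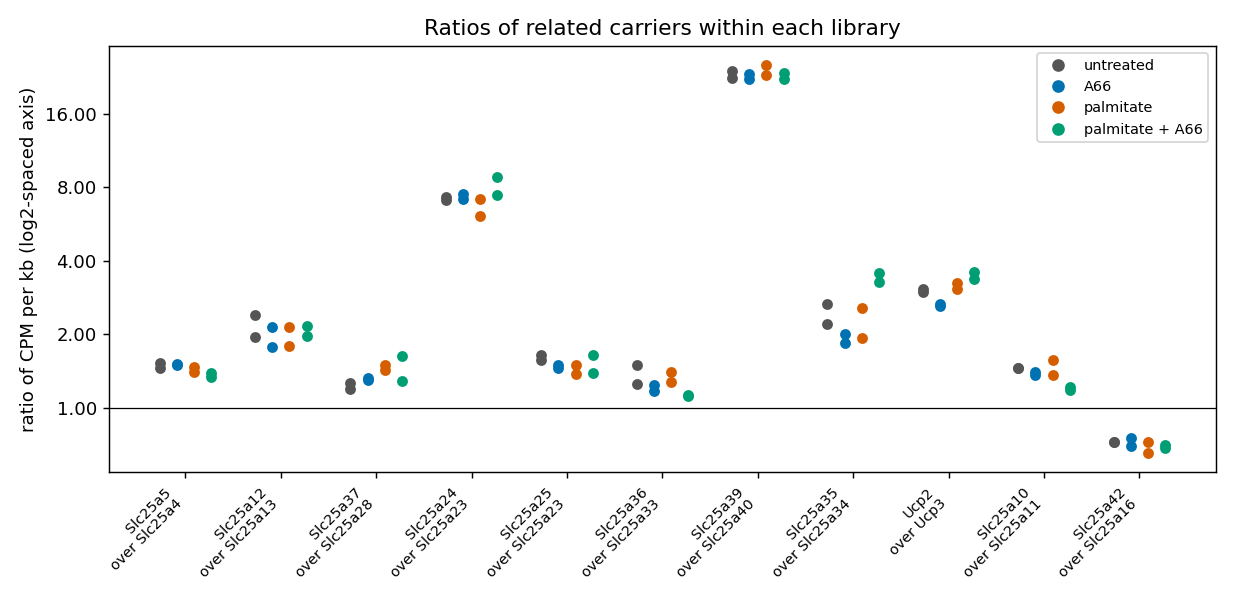
Ratio of the level per kilobase of related carriers within each library, on a log-spaced axis, with 1 point per library and colours for the groups. Slc25a39 exceeds Slc25a40 by 22.3 to 25.3 times, and Slc25a42 is below Slc25a16 in every library, at 0.651 to 0.753.

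Other genes of mitochondrial transport were listed for comparison. Of 27 further carriers and channels, all tested, 2 were higher with A66 alone (1.07% of all genes), the sodium-calcium exchanger Slc8b1 (0.21, adjusted p = 0.0471) and the outer membrane protein Tspo (0.21, adjusted p = 0.0314), and 1 was lower with palmitate added to A66 (1.27% of all genes), Mtch1 (-0.18, adjusted p = 0.0135). In the remaining comparisons 0 passed by edgeR, with 3 or 4 at an unadjusted p under 0.05, where 7.92% to 14.4% of all genes were. The 6 enzymes listed belong to the malate-aspartate shuttle, in which Slc25a11 to Slc25a13 take part, and to the glycerol phosphate shuttle. Among them the aspartate aminotransferase Got1 rose with palmitate alone (0.20, edgeR adjusted p = 0.0354) and with palmitate added to A66 (0.25, adjusted p = 0.00324). In these comparisons 0.631% and 1.46% of all genes were higher. The malate dehydrogenase Mdh1 fell when A66 was added to palmitate (-0.22, adjusted p = 0.00527, 1.84% of all genes lower), and the glycerol phosphate dehydrogenase Gpd1 fell when palmitate was added to A66 (-0.28, adjusted p = 0.00141, 1.27% of all genes lower). With A66 alone 0 of the 6 passed, and 1 had an unadjusted p under 0.05.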

How the data were processed

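RNA with a poly(A) tail was prepared with a stranded TruSeq kit, and the submitters' processing notes name TopHat2 2.0.11, HTSeq and GRCm38. The authors deposited raw counts per Ensembl gene, 1 column per library, without normalization. The strand setting and annotation of the counting are not given in the sources used here. Further deposited columns hold the authors' own DESeq2 comparison (a mean, fold changes, test statistics and p-values) and were not used.

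Gene names, coordinates and exon lengths came from GENCODE M21, which matched 42462 of 43629 genes. Counts were tested in R 4.3.3 with edgeR 4.0.16 (TMM, filterByExpr with a minimum count of 10, quasi-likelihood tests, Benjamini-Hochberg adjustment over all genes, threshold 0.05). A66 was compared with untreated cells in 4 libraries and the other comparisons used all 8. The biological coefficient of variation was 0.0377 and 0.0406. Alternatives were other scalings, DESeq2 1.42.0, other filters, the replicate number as a block, other libraries in the fit, leaving out each library, the TMM denominator for shares and the longest transcript for levels. The floor covers counting error only. The script was tested on simulated data.

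The members, substrate groups and other lists were chosen with earlier results of these data known. Values in every library are given for members that passed a test, the 5 highest per length, the highest of each substrate group and the Ucp genes. Others are marked as named after their values were seen, or serve as counterpart of a named member. Ratios of related carriers were chosen after the counts were seen. The values of 1 tested member are not reported here; it is included in the counts.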

Additional observations from a re-analysis of the deposited data

How the results depend on the processing

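In the comparison of A66 with untreated cells, 1 member passed, and 2 passed when libraries were scaled by size only, with DESeq2, with no filter on low counts, and with at least 10 counts in every library, in each case Slc25a10 and Slc25a35. Without untreated replicate 1 the log2 difference of Slc25a35 shrank from -0.38 to -0.314 and that of Slc25a10 grew from -0.156 to -0.188. Leaving out single libraries gave 0 to 2, with 0 without either A66 library and with Slc25a33 called besides Slc25a35 without untreated replicate 2. For palmitate alone 0 became 1 (lower) with no filter, and leaving out libraries gave 0 to 1, with 1 (lower) without palmitate replicate 2. For A66 added to palmitate 2 passed, and 1 to 2 when libraries were left out, with Slc25a10 alone without palmitate replicate 2 or palmitate plus A66 replicate 2. For palmitate added to A66 2 passed, 4 with no filter (Slc25a30 higher, Slc25a5 lower besides the first 2) and 0 to 3 when libraries were left out, with 0 without A66 replicate 1 or palmitate plus A66 replicate 1. The interaction gave 0 under every setting. The cause was not tested. No called difference of a named gene changed sign under the alternatives run. Of all genes, without a filter 459 in place of 261 passed for A66, 396 in place of 171 for palmitate, 652 in place of 410 for A66 added to palmitate and 664 in place of 398 for palmitate added to A66 (689 when fitted on 4 libraries). Leaving out single libraries gave 98 (without A66 replicate 2) to 635 (without untreated replicate 2) for A66, 71 (without palmitate replicate 1) to 245 (without palmitate replicate 2) for palmitate, 147 (without palmitate replicate 2) to 494 for A66 added to palmitate, 107 (without A66 replicate 1) to 502 for palmitate added to A66 and 0 to 10 for the interaction. The interaction called 1 gene, 21 with DESeq2, 91 without a filter, 3 with the block and 2 by library size. Scaling by library size only shifted the median of all genes by at most 0.020 and turned the split of higher and lower calls from 152 and 109 to 126 and 154 for A66, from 92 and 79 to 83 and 105 for palmitate, from 142 and 268 to 107 and 350 for A66 added to palmitate and from 213 and 185 to 180 and 266 for palmitate added to A66.

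With the replicate number as a block, 1, 0, 2, 3 and 0 members passed in the order of the comparisons above, and Slc25a5 passed for palmitate added to A66 (adjusted p = 0.0378), as it did with library size only (0.0368), DESeq2 (0.0156), no filter (0.00365) and a fit on the 4 libraries compared (0.00723). The numbers share no origin in the labels, and deviations of libraries with the same number correlated at only -0.018 to 0.048 over 14587 genes. By the longest transcript in place of all exons Ucp2 ranked 10 in place of 16, Slc25a34 ranked 38 in place of 36, and Slc25a36 and Slc25a17 ranked above Slc25a51. The ratio of Slc25a36 to Slc25a33, at most 1.49 per kilobase of exon, was 2.05 to 2.74 by that length.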
